A study of Homo sapiens with 4 samples.

Results

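The genes of MET signalling in Hs746T cells were followed through a comparison of MET inhibition and MET knockdown. They were 10 genes: the receptor MET, its ligand HGF, the pro-HGF proteases HGFAC and ST14, the protease inhibitors SPINT1 and SPINT2, the adaptors GAB1 and GRB2, the ubiquitin ligase CBL and the phosphatase PTPN11. All probes annotated to these genes by RefSeq accession or symbol were taken, which gave 12 probes of the 34127 on the array and 10 of the 19740 genes named there. HGF and PTPN11 had a pair of probes each, and every other gene had 1.

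Hs746T is an established gastric carcinoma line whose MET gene is both amplified and mutated, the mutation removing from the mRNA the exon that holds the docking site of CBL. The cells were grown in DMEM with fetal bovine serum, and all results come from this single line. There were 4 conditions with 1 array each: DMSO, the solvent control; PHA665752, a small-molecule inhibitor of the MET kinase; sc siRNA, a scrambled control siRNA; and MET siRNA, directed against the MET transcript. The cells of both siRNA conditions were harvested 48 h after transfection, whereas the dose and duration of PHA665752 for the array were not given in the sources used here. The inhibitor array was set against DMSO and the MET siRNA array against sc siRNA, and the 2 controls were set against each other to show how far they lay apart. The PHA665752 array is also called the inhibitor array, and the MET siRNA array the knockdown array.

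MET is the receptor tyrosine kinase for hepatocyte growth factor, HGF, which is secreted as an inactive single chain and is cut into its active form by serine proteases such as HGFAC and matriptase, the product of ST14. SPINT1 and SPINT2 are Kunitz-type inhibitors of these proteases. The activated receptor recruits GRB2 and GAB1, GAB1 docks the phosphatase SHP2 encoded by PTPN11, and CBL ubiquitinates the receptor and sends it to degradation. In epithelia the ligand typically comes from neighbouring stromal cells, and in cells with amplified MET the receptor can signal without it.

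Each value is a processed signal, the intensity of a spot in arbitrary units after background subtraction. A log2 ratio is the difference between 2 arrays in log2 processed signal after each array was set to its own 75th percentile, which corresponded to signals of 990.05 with DMSO, 853.5 with the inhibitor, 830.79 with sc siRNA and 858.17 after knockdown. Between 61.1% (MET siRNA) and 68.2% (sc siRNA) of the probes were well above background, the software's mark for a detected spot. Between 1.69% (sc siRNA) and 5.58% (MET siRNA) of the spots carried an outlier mark and were left out. With 1 array per condition there was no test and no error between cultures, and this number of arrays is what limits precision. The errors given are the spread between spots of a probe spotted 10 times or, for a probe spotted once, the error computed by the scanner software, and neither covers differences between cultures. In bulk RNA, fewer cells that express a gene and less of its RNA per cell cannot be told apart.

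The labelled cell type was checked against marker genes. Of 5 epithelial markers, 5 were well above background with DMSO, PHA665752 and sc siRNA and 4 after knockdown. There CDH1, the gene of E-cadherin, was not. CDH1 read 33.0 with DMSO, 30.2 with the inhibitor, 13.1 with sc siRNA and 10.4 after knockdown, with a log2 ratio of -1.08 between the controls. The lowest detected signal of any probe was 10.23 with sc siRNA and 17.39 after knockdown. Of 4 mesenchymal markers, 3 had a value on each array (FN1, CDH2 and ZEB1), and these were well above background on each. With DMSO they read 1061.5, 4099.1 and 2789.9. Of the 4 measured gastric mucosa markers 3 were well above background on each array, and GKN1 was not. Of the blood cell markers, CD3E, which defines T cells, was not well above background on any array, whereas PTPRC (signals 22.7 to 37.8) and CD14 (113 to 140.15) were so on each. The 5 fibroblast markers, of which 4 were well above background on each array and PDGFRA was not, were each higher with both treatments where they had a ratio and summed to 2103 with DMSO, 11215 with the inhibitor, 1889 with sc siRNA and 3921 after knockdown. The 3 endothelial markers, all well above background on each array, summed to 1965, 552.8, 1140.0 and 935.2 in the same order. They moved in opposite directions: the log2 ratio of PECAM1 was -2.39 with the inhibitor and -0.44 after knockdown, that of CDH5 -0.21 and -0.09, and that of VWF 2.77 and 1.13. The part of these marker genes in the results was not tested.

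The promoters of the receptor, of its ligand and of SPINT1 are shown because the results turn on these genes. Of the 10 genes, 5 had a promoter entry in the RefSeq table (build GRCh38.p14), which covers 250 bases before to 50 bases after a start site: MET, HGF, HGFAC, SPINT1 and GRB2. Capitals mark matches, on either strand, to GGGCGG (the GC box bound by SP1), TGANTCA (the AP-1 motif), CCGGAAG (an ETS motif) and TGACGTCA (the CRE). The MET promoter lies at chr7:116671946-116672245 on the plus strand, the HGF promoter at chr7:81769998-81770297 on the minus strand and the upstream entry of SPINT1, which has 2, at chr15:40843798-40844097 on the plus strand.
MET: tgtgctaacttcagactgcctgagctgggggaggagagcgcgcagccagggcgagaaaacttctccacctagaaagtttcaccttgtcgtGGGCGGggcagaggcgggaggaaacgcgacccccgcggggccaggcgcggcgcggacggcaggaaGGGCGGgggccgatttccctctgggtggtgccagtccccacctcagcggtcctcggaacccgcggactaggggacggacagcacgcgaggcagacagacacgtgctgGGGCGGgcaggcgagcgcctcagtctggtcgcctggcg
HGF: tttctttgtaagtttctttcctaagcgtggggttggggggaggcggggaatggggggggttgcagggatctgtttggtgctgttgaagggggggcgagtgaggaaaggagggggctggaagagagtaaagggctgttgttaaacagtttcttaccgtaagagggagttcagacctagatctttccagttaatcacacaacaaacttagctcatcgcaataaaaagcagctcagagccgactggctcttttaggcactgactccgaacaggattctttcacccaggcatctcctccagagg
SPINT1: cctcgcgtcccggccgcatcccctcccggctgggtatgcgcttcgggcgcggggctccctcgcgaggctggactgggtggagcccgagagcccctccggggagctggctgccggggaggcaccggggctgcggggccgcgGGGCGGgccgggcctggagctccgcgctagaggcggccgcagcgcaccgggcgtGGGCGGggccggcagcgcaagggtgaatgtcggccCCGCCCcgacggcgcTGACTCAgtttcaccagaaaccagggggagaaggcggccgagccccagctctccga
The MET window held 3 GC boxes and no match to the other motifs, and 69.3% of its bases were G or C, against a median of 58.7% over all 35116 promoters of the table. The HGF window held no match and had 51% G or C. The SPINT1 window held 3 GC boxes and 1 AP-1 motif, with 77.7% G or C, whereas the other SPINT1 entry, at chr15:40844227-40844526, held no match and had 69.7% G or C. Among all promoters of the same length, 45% held a GC box, 7.71% an AP-1 motif, 10.3% the ETS motif and 1.85% a CRE. A match is a description of the letters and is neither a site nor a cause.

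MET, the receptor targeted by both treatments, had a lower signal with each of them. Its probe A_23_P359245, annotated to NM_000245, gave a signal of 221451 with DMSO, 100492 with the inhibitor, 190010.0 with sc siRNA and 77853 after knockdown. Both control arrays were high, PHA665752 was lower and MET siRNA was lowest. The probe was spotted 10 times on each array. The usable spots ran from 209484 to 236260 with DMSO (n = 7 spots), from 98049.7 to 103066 with the inhibitor (n = 9), from 184504 to 195930 with sc siRNA (n = 9) and from 72656.4 to 81927.6 after knockdown (n = 10), so that the spots of no pair of arrays overlapped before scaling.

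**Figure D1:**
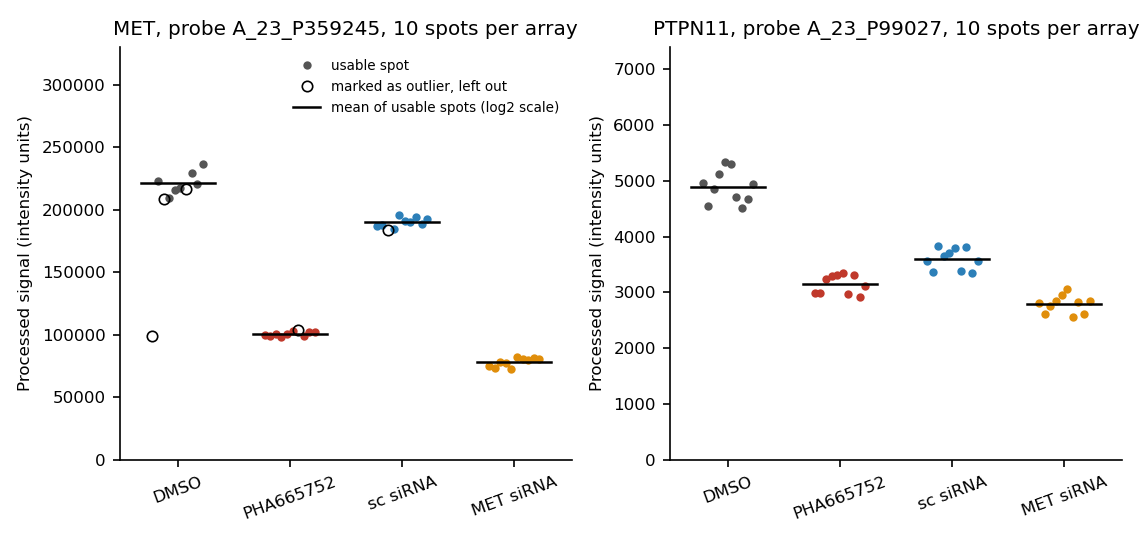
Processed signal (intensity units, linear axis from 0) of each of the 10 spots of the MET probe A_23_P359245 and of the PTPN11 probe A_23_P99027 on each array, with outlier-marked spots as open circles and the mean of the usable spots as a line. The MET spots with the inhibitor (at most 103513, a marked spot) and MET siRNA (at most 81927.6) sit below all usable spots of the control arrays, and 1 marked spot with DMSO at 98651 lies far below the others of that array.

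The log2 ratio of MET was -0.93 for PHA665752 over DMSO (SE between spots 0.0233), a level of 52.6% of the control. For MET siRNA over sc siRNA it was -1.33 (SE 0.0221), a level of 39.7% of the control. For sc siRNA over DMSO it was 0.032 (SE 0.0236). The order after scaling was thus sc siRNA, DMSO, PHA665752 and MET siRNA, in which sc siRNA and DMSO differed by less than 2 SE of their spots, and their order turned under 3 of 9 alternatives in the processing. Past 2-fold stood the MET siRNA ratio (2.52-fold lower), whereas the inhibitor ratio (1.90-fold lower) stood just inside it and passed it under 2 of the 9 alternatives. With PHA665752, 8.45% of all probes with a ratio had a lower one than MET, compared with 0.387% after knockdown (83 of 21454 probes).

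No MET spot carried the saturation mark, and the scanner's saturation value was 779156. Outlier marks removed 3 spots with DMSO, 1 with the inhibitor and 1 with sc siRNA. With the marked spots kept, the DMSO signal was 202572. NM_000245 is 1 of 4 curated MET transcripts in the RefSeq table, and the position of the probe within the transcript was not in the files used here. The ratio therefore applies to whatever MET transcripts the probe binds, and transcripts with and without the skipped exon were not separated.

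HGF, the ligand of MET, was well above background by only 1 of its 2 probes, and by that probe only on the DMSO and inhibitor arrays. Probe A_33_P3276713 (NM_001010931) read 2.62 ± 2.61 (software error, 1 spot) with DMSO, 5.04 ± 2.77 with the inhibitor and 2.73 ± 2.27 with sc siRNA, while its spot after knockdown carried an outlier mark. It was well above background on no array and gave no ratio. Probe A_33_P3276718 (NM_001010934) read 17.6 ± 3.01 with DMSO and 43.7 ± 5.08 with the inhibitor, both well above background, and 3.38 ± 2.18 with sc siRNA and 3.91 ± 3.77 after knockdown, neither well above background. PHA665752 was therefore the highest of the 4 arrays, and the siRNA arrays did not differ beyond the software error.

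The log2 ratio of this second HGF probe was 1.53 for PHA665752 over DMSO (software error 0.30), 2.89-fold higher, with 94.5% of all probes lower. It rests on a single spot per array, where the lowest detected signal of any probe was 10.84 (DMSO) and 12.34 (inhibitor). Normexp background correction, which draws dim ratios towards 0, gave 0.55, under 2-fold, and the other 8 alternatives kept the ratio past 2-fold. The sc siRNA array gave a bound of at least 1.44-fold lower than DMSO (log2 -0.53), and no ratio could be formed between the siRNA arrays. Over 8 alternatives the log2 value between the controls lay between -2.12 (no filter on dim probes) and -0.23 (normexp). It was past 2-fold under 2 of them, so the controls may differ more at this probe than the bound shows. The probes carry 2 of the 5 curated HGF accessions, and none carries NM_000601. Where they lie in the transcripts was not known, so whether they bind the other transcripts at all is unknown. The signals therefore apply only to whatever HGF transcripts these probes bind.

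**Figure D2:**
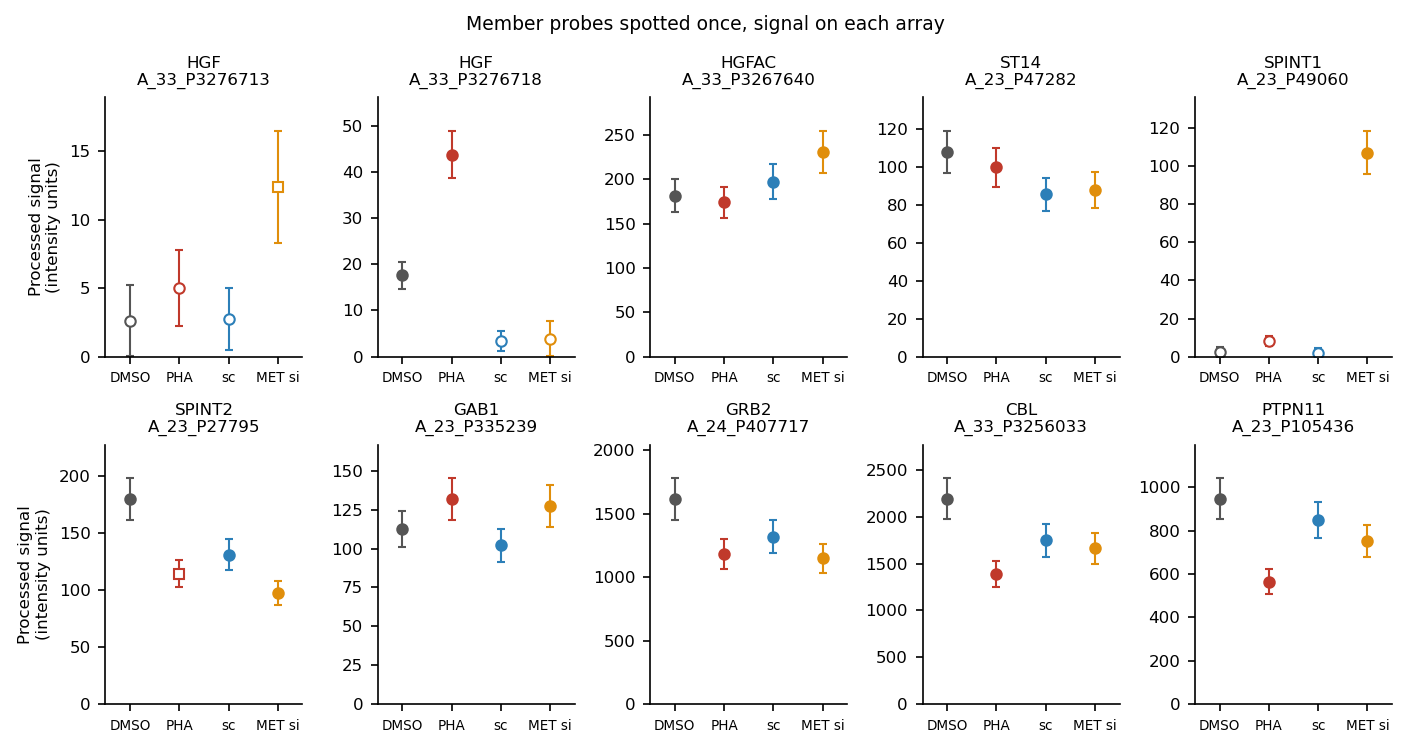
Processed signal (intensity units, linear axes from 0, a different scale in each panel) of the 10 member probes spotted once, with DMSO, PHA665752 (PHA), sc siRNA (sc) and MET siRNA (MET si), and bars for the software error of the spot. Filled circles are well above background, open circles are not, and open squares carry an outlier mark and were left out; SPINT1 stands at 107 after knockdown and at or below 8.16 elsewhere.

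The signals of the pro-HGF proteases differed little between arrays. HGFAC, the hepatocyte growth factor activator, read 181 ± 18.4 with DMSO, 174 ± 17.6 with the inhibitor, 197 ± 19.9 with sc siRNA and 231 ± 23.4 after knockdown. Its log2 ratios were 0.15 with the inhibitor, 0.18 after knockdown and 0.37 between the controls (software errors 0.21), so the difference between the controls was the largest of the 3 and was the only one above the software error. The sign turned under the 50th percentile for PHA665752 (-0.09) and under the median of the detected probes for MET siRNA (-0.12). ST14, which encodes matriptase, a membrane-bound activator of pro-HGF, read 108 ± 11, 99.8 ± 10.3, 85.6 ± 8.81 and 87.7 ± 9.43 with DMSO, PHA665752, sc siRNA and MET siRNA. All 3 log2 ratios of ST14, 0.10, -0.01 and -0.08, lay within the software error of 0.21.

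SPINT1, which encodes the inhibitor HAI-1, was well above background on a single array. Its probe A_23_P49060 (NM_181642) read 2.52 ± 2.51 with DMSO, 8.16 ± 2.74 with the inhibitor, 2.17 ± 2.16 with sc siRNA and 107 ± 11.3 after knockdown. The bound for MET siRNA over sc siRNA was at least 10.1-fold higher (log2 3.34), above 99.9% of all probes, and across the 8 alternatives that gave a value the log2 value lay between 1.42 and 5.58. No ratio was formed with the inhibitor or between the controls.

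This was 1 spot. Its median signal before background subtraction was 144 against a local background of 24 on the MET siRNA array, and 37 to 47 against 29 to 32.5 on the others. It carried no outlier mark. Of its 14 neighbouring spots on that array, 1 was marked, and their local backgrounds lay between 21 and 27. The median signal of these neighbours was 81.67 on the MET siRNA array, 23.23 on the DMSO array, 59.29 on the inhibitor array and 20.75 on the sc siRNA array. By the median, the neighbours too were thus brightest where SPINT1 was detected. Their highest signal was 1183.5, 987.94, 1898 and 1043.1 in the same order, and so was highest on the inhibitor array. The part of the neighbours in the SPINT1 signal was not tested. Probes well above background on 1 array only numbered 391 with DMSO, 611 with the inhibitor, 439 with sc siRNA and 181 after knockdown. The lowest detected signals were 10.84, 12.34, 10.23 and 17.39 in the same order. Those of the probes with at least the signal of SPINT1 numbered 7, 7, 4 and 13, SPINT1 included in the last. The accession is 1 of 6 curated SPINT1 transcripts, and no other probe on the array carried the gene.

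SPINT2, which encodes the inhibitor HAI-2, read 179 ± 18.1 with DMSO, 131 ± 13.3 with sc siRNA and 97.2 ± 10.4 after knockdown. Its spot with the inhibitor carried an outlier mark, and the ratio of -0.45 obtained by ignoring the mark is given only as a value. The log2 ratio for MET siRNA over sc siRNA was -0.47 (software error 0.21), with 5.45% of all probes lower, and it lay between -0.78 and -0.28 over the alternatives. Between the controls it was -0.20 (software error 0.21). The protease inhibitor genes thus had opposite signs after knockdown, SPINT1 on a bound and SPINT2 on a ratio under 2-fold.

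Among the intracellular partners of the receptor, GAB1 was slightly higher and GRB2, CBL and PTPN11 were lower with both treatments, in every case by less than 2-fold. GAB1, the scaffold that binds the activated receptor, read 113 ± 11.6 with DMSO, 132 ± 13.5 with the inhibitor, 102 ± 10.5 with sc siRNA and 127 ± 13.4 after knockdown. Both treated arrays were above their controls, with log2 ratios of 0.44 and 0.27 (software error 0.21 each) and 0.11 between the controls. The MET siRNA ratio turned to -0.03 under scaling to the median of the detected probes, which moved the median of all probes to -0.32.

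GRB2, the adaptor that links the receptor to RAS, read 1617 ± 162 with DMSO, 1184 ± 118 with the inhibitor, 1319.6 ± 132 with sc siRNA and 1148 ± 115 after knockdown. Its log2 ratios were -0.24 with the inhibitor, -0.25 after knockdown and -0.04 between the controls, with software errors of 0.20. CBL read 2194 ± 219, 1386 ± 139, 1751 ± 175 and 1666 ± 167 in the same order of arrays. DMSO was the highest and PHA665752 the lowest of these, with a log2 ratio of -0.45, 20.4% of all probes being lower. The CBL ratio was -0.12 after knockdown and -0.07 between the controls, both within the software error of 0.20.

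PTPN11, the gene of SHP2, was measured by 2 probes of the same accession, NM_002834. Probe A_23_P99027, spotted 10 times with all spots usable, read 4888 with DMSO, 3146 with the inhibitor, 3596 with sc siRNA and 2787 after knockdown. The spots with the inhibitor ran from 2925.72 to 3348.25 and those with DMSO from 4515.19 to 5331.54, without overlap. The spots after knockdown, 2565.67 to 3052.36, likewise lay below those with sc siRNA, 3345.79 to 3823.25. Its log2 ratios were -0.42 with the inhibitor (SE between spots 0.0365), -0.41 after knockdown (SE 0.0352) and -0.19 between the controls (SE 0.0362).

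Probe A_23_P105436 of PTPN11 read 946 ± 94.7, 564 ± 56.5, 849 ± 84.9 and 752 ± 75.3 in the order DMSO, PHA665752, sc siRNA and MET siRNA. Its log2 ratios were -0.53 with the inhibitor, -0.22 after knockdown and 0.10 between the controls (software error 0.20 each). The probes thus had the same sign with both treatments and opposite signs between the controls, and they differed by 0.11, 0.19 and 0.29 on the log2 scale in the 3 comparisons.

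Counted together, 9 of the 12 probes had a ratio with the inhibitor, and 1 of them, that of HGF, was past 2-fold, against a background of 20.3% of all probes past 2-fold in this comparison (4753 of 23471). There were 4 probes higher and 5 lower, with a median log2 ratio of -0.24, beside 0.09 over all probes. With MET siRNA 10 probes had a ratio or bound, and 2 of them, MET (lower) and SPINT1 (higher), were past 2-fold, against 2.93% of all probes (628 of 21454). MET is the transcript that the siRNA targets, and SPINT1 is a bound from 1 spot. The count is therefore not a result about the members as a set. There were 3 probes higher and 7 lower, with a median of -0.17 beside -0.03 over all probes. Between the controls 10 probes had a ratio or bound, 0 were past 2-fold, against 4.19% of all probes (991 of 23629), and the median was -0.06 beside 0.00 over all probes. The HGF value among them, -0.53, is a bound and sets only a minimum.

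**Figure D3:**
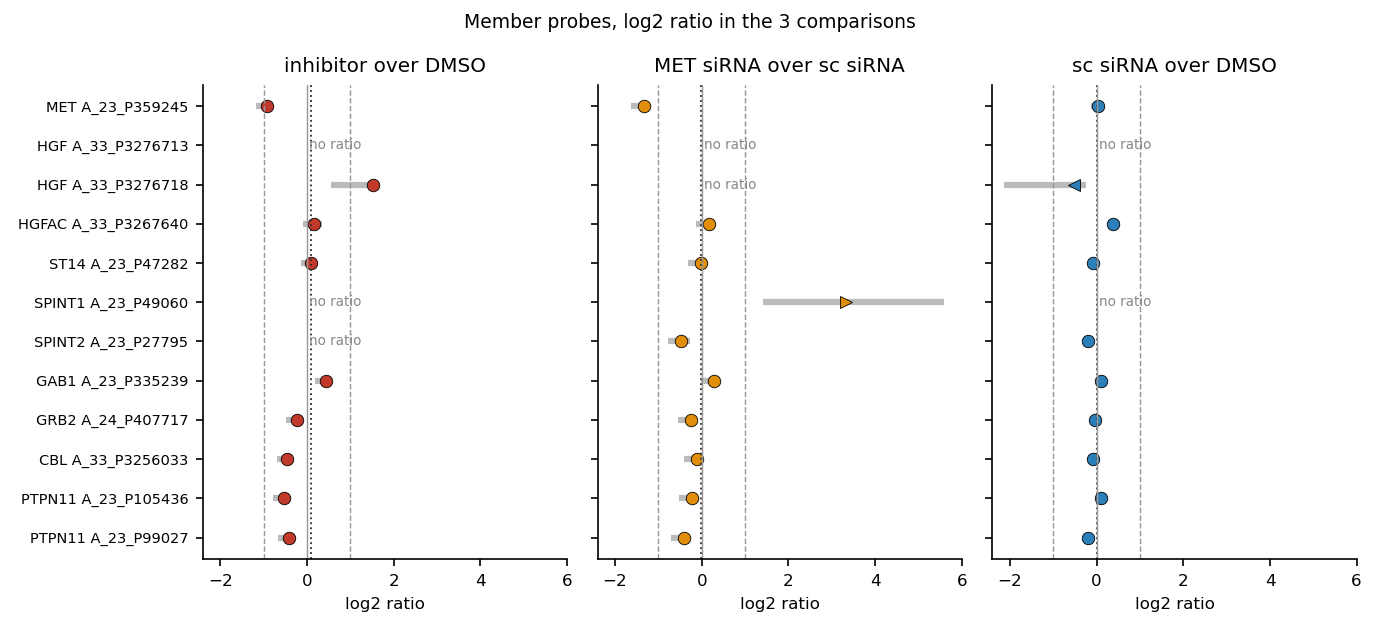
Log2 ratio of each member probe in the 3 comparisons (circles; triangles are bounds), with grey bars for the range over the alternatives in the processing, dashed lines at 2-fold and a dotted line at the median of all probes. MET stands at -0.93 with the inhibitor and -1.33 after knockdown, HGF at 1.53 with the inhibitor and SPINT1 at a bound of 3.34 after knockdown. The ratios of the other members stay inside 2-fold. HGF between the controls is a bound of -0.53, which does not settle whether it is past 2-fold.

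Ratios were available in both treatment comparisons for 8 probes, and these comparisons share no array. Of these, 5 were lower in both (MET, GRB2, CBL and both PTPN11 probes), 2 were higher in both (HGFAC and GAB1) and 1, ST14, had opposite signs. Over all 20657 probes with both ratios, 6957 (33.7%) were lower in both, 6926 were higher in both and 6774 had opposite signs. The 5 include MET, the target of both treatments, and count PTPN11 by both its probes. The CBL ratio after knockdown and both HGFAC ratios lay within the software error.

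**Figure D4:**
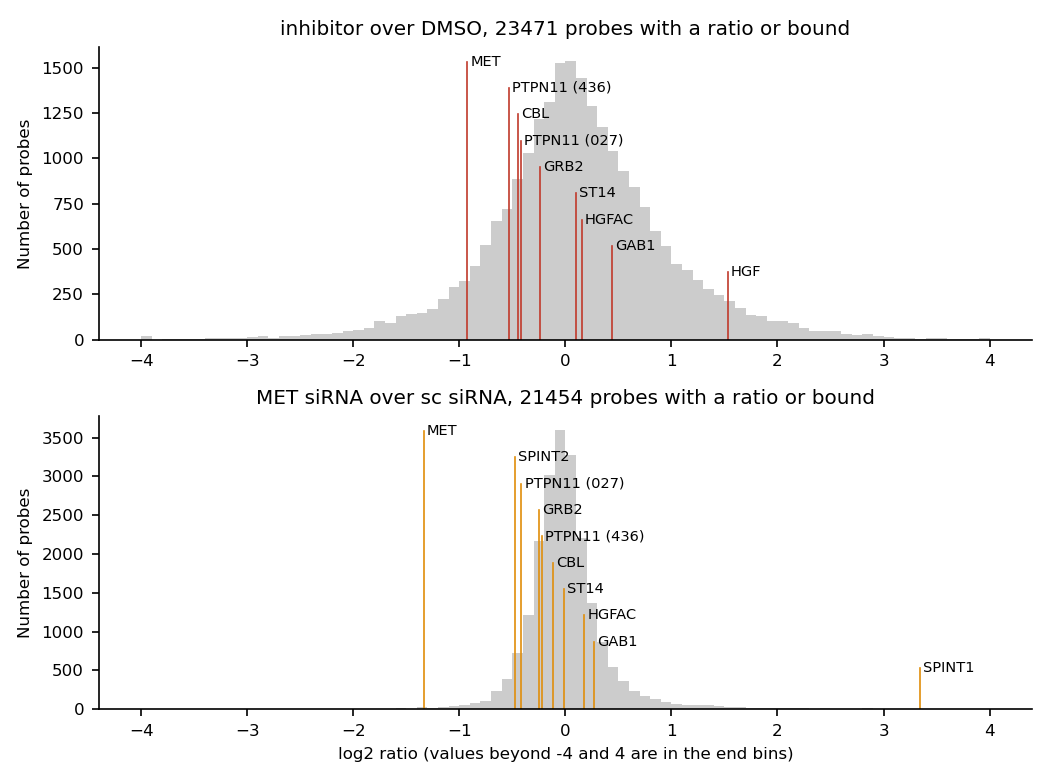
Histograms of the log2 ratios of all probes with a ratio or bound for PHA665752 over DMSO (23471 probes) and MET siRNA over sc siRNA (21454 probes) in bins of 0.1, with the member probes marked as vertical lines at arbitrary heights; the PTPN11 probes are told apart by the last digits of their names. The MET line at -0.93 lies within the wide distribution with the inhibitor, whereas at -1.33 it lies in the sparse tail after knockdown.

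A wider list of 47 genes of the MET pathway, of which 46 had a probe with a value on each array, was read by the brightest probe of each gene. With PHA665752, 41 of them had a ratio or bound, and 7 were past 2-fold higher and 5 past 2-fold lower, together 29.3% of those with a ratio, against a background of 21.1% of all genes (3027 of 14322). The count lay between 9 and 12 over the alternatives, and it was 9 under the 50th percentile, where CD44, GAB2 and SRC were inside 2-fold. Their median log2 ratio was 0.33, beside 0.07 over all genes. With MET siRNA 0 of 39 genes were past 2-fold, against 2.73% of all genes, and 12 were higher and 27 lower, with a median of -0.06 beside -0.02. Between the controls 0 of 41 were past 2-fold, against 4.05% of all genes.

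Among proteases that can cut pro-HGF and their inhibitors, 3 of 7 genes had a ratio with the inhibitor and 2 of them were past 2-fold lower. This is 66.7% beside 21.1% of all genes past 2-fold either way, but 3 genes are too few for a statement about the group. PLAU, the urokinase gene and the brightest of this group with DMSO, read 192412 with DMSO, 48542 with the inhibitor, 121059 with sc siRNA and 84697 after knockdown. Its log2 ratios were -1.77 with the inhibitor, -0.56 after knockdown and -0.42 between the controls, and its other probe gave -1.98, -0.69 and -0.30. F12, coagulation factor XII, had log2 ratios of -1.43, -0.24 and -0.21 in the same order. HPN, KLKB1 and SERPINA5 had no ratio in any comparison, and TMPRSS13 lacked a value on the knockdown array.

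Among the relatives and partners of the receptor, 3 of 7 genes were past 2-fold higher with the inhibitor and 1 past 2-fold lower. Together these are 57.1% beside 21.1% of all genes, but 7 genes are too few for a statement about the group. MST1, which encodes the HGF-related ligand of the receptor MST1R, read 1009.6 with DMSO, 4829.8 with the inhibitor, 829.73 with sc siRNA and 1213.6 after knockdown. Its log2 ratios were 2.47, 0.50 and -0.03 with the inhibitor, after knockdown and between the controls, and near-identical copies of MST1 in the genome mean that the probe may have measured more than 1 of them. MST1R itself had log2 ratios of -0.51, -0.03 and 0.20. PLXNB1, a semaphorin receptor that associates with MET, was well above background only with the inhibitor, with a signal of 27.2 against 2.85 with DMSO and a bound of at least 1.54 on the log2 scale, which was past 2-fold under 7 of 8 alternatives. CD44, a co-receptor of MET, was higher with the inhibitor (1.02), not after knockdown (-0.22), and fell inside 2-fold under 2 of 9 alternatives. NRP1, neuropilin 1, had log2 ratios of -1.20, -0.54 and -0.32, and its other probe gave -0.66 with the inhibitor, inside 2-fold.

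Of the 16 other adaptors and effectors, all with a ratio, 2 were past 2-fold higher and 1 past 2-fold lower with the inhibitor. Their share of 18.8% was no higher than the 21.1% of all genes. GAB2, the relative of GAB1, read 646.65 with DMSO, 1246.5 with the inhibitor, 607.98 with sc siRNA and 817.16 after knockdown. It was higher with both treatments, at log2 ratios of 1.16 and 0.38, as GAB1 was at 0.44 and 0.27, and the first GAB2 ratio fell to 0.91 under the 50th percentile, inside 2-fold. CRKL, an adaptor bound by GAB1, had log2 ratios of -1.41 with the inhibitor, -0.33 after knockdown and 0.01 between the controls. The kinase gene SRC stood at 1.04 with the inhibitor, past 2-fold under 5 of 9 alternatives, and at 0.10 after knockdown. SHC1, the brightest of the group with DMSO, had ratios of 0.21 and -0.13 with the treatments, the first of which turned to -0.04 under the 50th percentile.

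Of 17 genes that act in switching off or degrading receptors, 15 had a ratio with the inhibitor, and 2 were past 2-fold higher and 1 past 2-fold lower. Their share of 20% was no higher than the 21.1% of all genes. CBLB, the close relative of CBL, read 264.51 with DMSO, 942.35 with the inhibitor, 433.59 with sc siRNA and 614.09 after knockdown. Its log2 ratio was 2.05 with the inhibitor and 0.46 after knockdown, but the controls also differed by 0.97. The other CBLB probe was not well above background with DMSO or after knockdown. It read 3.76 with DMSO and 17.3 with the inhibitor. It gave bounds of at least 0.89 with the inhibitor and at least 0.27 between the controls. As minimum values these do not settle whether it was past 2-fold. CBL stood at -0.45 with the inhibitor, of opposite sign to CBLB. PTPRJ, a receptor phosphatase that acts on MET, had log2 ratios of 1.91, 0.45 and -0.01, and its other probe was well above background on no array. SH3KBP1, which encodes the CBL-binding adaptor CIN85, had log2 ratios of -1.17, -0.46 and 0.27, and of its other probes 1 gave -1.47 and 1 gave -0.53 with the inhibitor. HGS, which sorts ubiquitinated receptors in endosomes and was the brightest of the group with DMSO, stayed near 0, at -0.05 and -0.03 with the treatments.

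**Figure D5:**
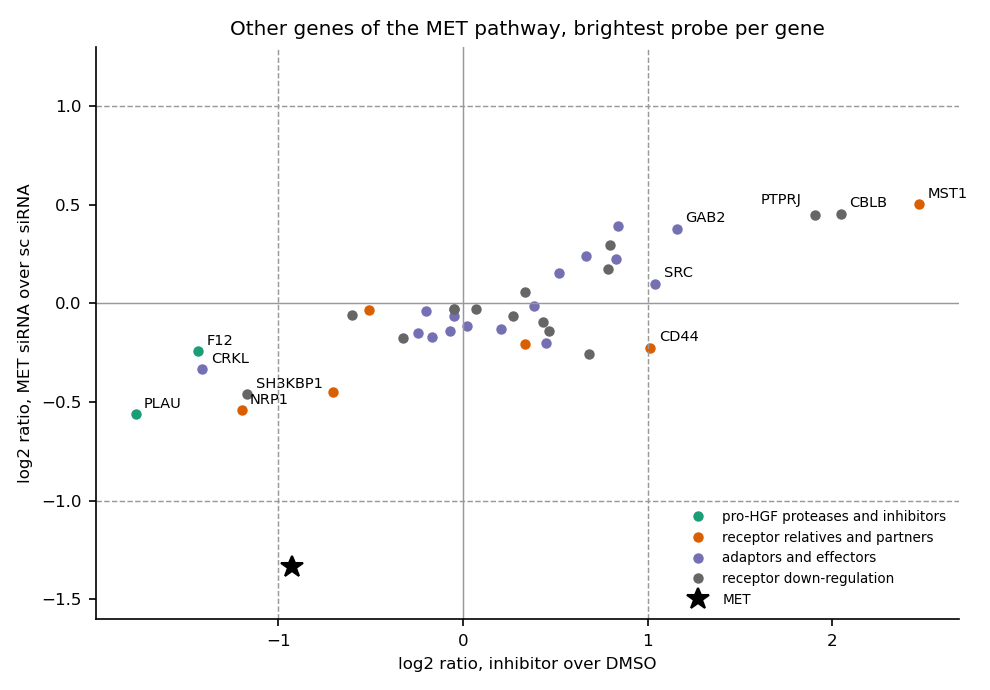
Log2 ratio after knockdown over sc siRNA against that with the inhibitor over DMSO for the 39 genes of the wider pathway list with both values, coloured by group, with dashed lines at 2-fold, names for genes past it with the inhibitor and a star for MET. No listed gene is past 2-fold after knockdown, where they lie between -0.56 (PLAU) and 0.50 (MST1), while MET lies at -1.33; PLXNB1 has no MET siRNA ratio and is not drawn.

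The genes whose 4 signals most resembled those of MET were sought among 13073 genes with a brightest probe well above background on each array, by the Euclidean distance between scaled log2 signals centred on their mean over the 4 arrays. The 5 nearest were FCGBP (distance 0.326), PTPN22 (0.327), PTPRZ1 (0.402), NRIP3 (0.405) and CBLN2 (0.408). Their log2 ratios ran from -1.15 (PTPRZ1) to -0.80 (FCGBP) with the inhibitor, around the -0.93 of MET. The values of 3 of them depended on the background correction: under normexp the inhibitor ratios were -0.30 for FCGBP, -0.32 for PTPRZ1 and -0.49 for CBLN2, while that of MET was -0.98. With MET siRNA they ran from -0.94 (CBLN2) to -0.77 (NRIP3), each closer to 0 than MET at -1.33. Between the controls they lay between -0.19 and 0.03. The DMSO signals were 81.6 for FCGBP, 2306 for PTPN22, 52.5 for PTPRZ1, 4982 for NRIP3 and 90.1 for CBLN2. The likeness rests on 4 arrays, which include both controls, and is a description.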

How the data were processed

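Total RNA of Hs746T cells was measured on 4 single-colour Agilent human 44K (V2) arrays. All arrays lay on the same slide. The authors deposited Feature Extraction's output files (11.5.1.1 per the file headers, whereas the study's methods name another version). In the files as deposited by the authors, the processed signal is a linear intensity per spot that the software had background-subtracted and detrended, and that was not normalized across arrays. For the 33128 probes spotted once, the series matrix held this signal too (tolerance 0.06), and it served as an alternative.

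Control spots were dropped, as were those carrying a mark as feature or background outlier. The 999 probes with 10 spots were averaged as log2 values, and each array's 75th percentile was then subtracted. A probe with several spots was well above background when the usable spots that the software called detected were no fewer than those it did not. When this held on 1 array of a pair the ratio was a bound, the dim side being set to its own signal or to that array's lowest detected signal, whichever was higher; when it held on neither, no ratio was formed. Probes were named through RefSeq accessions from a GRCh38.p14 table (25771 probes, 75.5%), which gave names only because the array was annotated on another build. A gene was represented by its brightest probe that had a value on every array.

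Past 2-fold describes size only, and with 1 array per condition no test was made. A log2 ratio counted as moved by an alternative when it shifted by more than 0.153, from the median spot noise of 0.0781 for a ratio. Alternatives were the 50th percentile, quantile normalization, the median of the probes well above background, normexp with an offset of 50, plain background subtraction, marked spots kept, the series matrix, no filter on dim probes, detection required on both arrays, and the median of a gene's probes in place of the brightest. Named were all member probes, pathway genes past 2-fold in either treatment comparison, the brightest gene of each pathway group on the DMSO array and the 5 genes most like MET. MST1R, the pathway genes without a ratio and the marker genes were picked outside this rule, with their values known. The members and lists were chosen with earlier results of these data known. The ratio rules were run on simulated data for the inhibitor pair (33770 probes). Past 2-fold came 200 of the 200 probes that had been changed and 0 others. The simulated arrays were copies of the DMSO array with small noise, and only bright probes were changed, each by more than 2-fold. Recovery was thus near certain beforehand, and it does not bear on dim probes such as those of HGF, PLXNB1 and SPINT1. Python 3.11.15, numpy 2.4.6, pandas 2.3.3, matplotlib 3.10.9, R 4.3.3 and limma 3.58.1 were used.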

Additional observations from a re-analysis of the deposited data

How the results depend on the processing

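No paired analysis was possible because each condition had 1 array, and for the same reason no replicate could be left out. Of the main results, the MET ratio between the controls changed sign, under 3 alternatives, and no other did. In all, 76 values of the MET ratios and of the counts past 2-fold were unchanged under an alternative (a ratio within 0.153, a count within 1.5 times) and 11 moved. The MET log2 ratio moved to -1.63 with MET siRNA under scaling to the median of the probes well above background, to -1.17 with PHA665752 under the 50th percentile and to -0.12 between the controls under quantile normalization. The count of member probes past 2-fold with PHA665752 was 2 under the 50th percentile, 2 under the median of the probes well above background, 0 under normexp and 3 without a filter on dim probes, in place of 1. With MET siRNA it was 1 in place of 2 when a probe had to be well above background on both arrays, which removes SPINT1. Between the controls it was 1 in place of 0 under plain background subtraction and 1 without a filter, and the pathway list count was 1 in place of 0 under plain subtraction. For single probes 635 values were unchanged within the tolerance and 91 moved. The scaling shifted the median of all probes with PHA665752 from 0.09 to -0.16 (50th percentile), and with MET siRNA from -0.03 to -0.32 (median of the probes well above background). The cause of the other changes was not tested.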
